A study of Mus musculus with 31 samples.

Results

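Immunoglobulin-family axon adhesion molecules are cell surface proteins that neurites and glia use to hold on to one another. The 10 genes described here, of 47729 in the count table, were taken by name: Ncam1 and Ncam2, the L1 family genes L1cam, Chl1, Nrcam and Nfasc, the contactin genes Cntn1, Cntn2 and Cntn4, and Kirrel3. Each matched 1 protein-coding gene of the table, and all 10 were among the 19332 genes that passed the filter on low counts. In GRCm38 with GENCODE M21, they lie on chromosome 9 (Ncam1 at 49502136 to 49798925, minus strand, and Kirrel3 at 34485894 to 35036716, plus), 16 (Ncam2 at 81200697 to 81626828, plus), X (L1cam at 73853778 to 73896105, minus), 6 (Chl1 at 103510586 to 103750211 and Cntn4 at 105677660 to 106699310, both plus), 12 (Nrcam at 44328885 to 44601964, plus), 15 (Cntn1 at 92051165 to 92341967, plus) and 1 (Cntn2 at 132509427 to 132543256 and Nfasc at 132564690 to 132741797, both minus). Exons of L1cam overlap those of Arhgap4 on the same strand (2119 counts in all libraries, against 23280 for L1cam) and exons of Ncam1 those of an antisense RNA, Gm11149 (228 against 179419). Reads there could have gone uncounted or to the other gene. The 31 libraries were made from laser-microdissected pieces of nerve of Sox10:H2BVenus embryos, a BAC transgenic mouse line in which Sox10 regulatory sequence drives a nuclear fluorescent protein in neural crest-derived glia, and every group carried that transgene. The pieces came from olfactory nerve in the olfactory mucosa at embryonic days E11.5 (4 libraries), E13.5 (7) and E16.5 (4), from the olfactory nerve layer (ONL) around the olfactory bulb at E13.5 (5), from the ONL at E16.5 in an outer part far from the bulb (4) and an inner part next to it (4), and from trigeminal nerve at E16.5 (3). The study compared these pieces crosswise to find how the ensheathing glia of olfactory mucosa and ONL and the Schwann cells of trigeminal nerve differ. Each piece held axons, glia and neighbouring cells together, so for every value below fewer cells of a type and less RNA per cell cannot be told apart.

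The extracellular parts of these proteins are rows of immunoglobulin and, except in Kirrel3, fibronectin domains that bind the same protein or a relative on the facing membrane. Ncam1 carries polysialic acid, which loosens contacts between growing axons, and Ncam2 is best known from olfactory axons of particular zones. L1 family proteins span the membrane and hold the ankyrin-spectrin skeleton, whereas contactins have no cytoplasmic part and work with partners such as contactin-associated proteins. In the olfactory system, Kirrel3 and Cntn4 are known for differing between sensory neurons and for sorting of their axons, and glia as well as neurons can make Ncam1, Chl1 and Cntn1.

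Before any comparison, 10 libraries from E11.5 and E13.5 went against their labels. The published group means are averages of particular libraries, which can be found by comparing them with the counts. Over 1457 genes, 31 of 31 libraries were placed in this way, 21 of them in the group of their own label. By that placement E13.5 ONL consists of all 4 libraries whose label reads E11.5 olfactory nerve together with replicate 1 of E13.5 olfactory nerve. E11.5 olfactory nerve consists of replicates 2 to 5 of the label E13.5 ONL, whose replicate 1 belongs to E13.5 olfactory nerve. The files do not state whether the labels or the published means place these 10 libraries correctly. What tissue and stage each early value stands for is therefore in doubt. The placement by published means was used for the early stages, and the value with groups taken from the labels is given beside each early test of the 10 genes. Which pieces came from which embryo is not in the labels, so p-values measure the spread between pieces. At E16.5 the paper cut trigeminal pieces from the sections that gave the olfactory pieces, so groups of that stage share embryos. Which of their libraries share an embryo is not stated. Libraries held 3512627 to 36705535 counts. Tubb3, a tubulin of neurons, had 5.07 to 5.74 CPM (read counts relative to library size, with TMM scaling) in trigeminal nerve, 11.4 to 199 CPM in outer ONL and 340 to 746 CPM in inner ONL. The trigeminal nerve pieces thus held little of this neuronal transcript, and outer ONL replicates 2 and 4, at 199 and 95.8 CPM of Tubb3, stood above replicates 1 and 3, at 11.4 and 23.7 CPM. Sox10 was detected in every library, from 39.9 CPM in 1 early nerve library to 712 CPM in outer ONL. In libraries placed as E13.5 ONL, 14 olfactory bulb markers summed to 982 to 1389 CPM and 10 glial markers to 4911 to 7569 CPM. In those placed as E11.5 olfactory nerve, they summed to 170 to 212 CPM and 648 to 1038 CPM. The paper states that at E11.5 only ensheathing cells of the mucosa are present.

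Sequence just before the RefSeq start is shown for 3 genes whose windows lie outside annotated exons: Ncam2 and Cntn1, which were higher in outer ONL than in olfactory nerve at E16.5, and Nrcam, which was higher in inner than in outer ONL. The windows are the 250 bases upstream of a RefSeq start in GRCm38.p6, at chr16:81200447-81200696 (plus strand), chr15:92050915-92051164 (plus strand) and chr12:44328635-44328884 (plus strand), and none of the 3 overlaps a gene annotated in GENCODE M21.
Ncam2: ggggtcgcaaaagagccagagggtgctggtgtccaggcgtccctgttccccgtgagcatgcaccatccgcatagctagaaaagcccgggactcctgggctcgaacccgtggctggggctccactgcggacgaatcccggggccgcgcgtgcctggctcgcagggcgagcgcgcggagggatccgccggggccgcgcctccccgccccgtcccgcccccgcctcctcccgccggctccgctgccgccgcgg
Cntn1: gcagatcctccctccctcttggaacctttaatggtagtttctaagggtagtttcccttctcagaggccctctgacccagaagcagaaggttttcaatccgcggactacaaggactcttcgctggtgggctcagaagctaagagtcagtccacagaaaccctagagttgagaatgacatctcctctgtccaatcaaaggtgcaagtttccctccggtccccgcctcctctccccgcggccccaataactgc
Nrcam: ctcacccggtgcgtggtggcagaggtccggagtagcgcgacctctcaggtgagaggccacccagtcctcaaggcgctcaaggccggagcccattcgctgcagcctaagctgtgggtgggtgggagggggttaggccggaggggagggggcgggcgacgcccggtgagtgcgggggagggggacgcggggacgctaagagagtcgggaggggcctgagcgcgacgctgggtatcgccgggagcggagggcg
The Ncam2 and Nrcam windows had 75.2% and 72.4% G or C with 32 and 25 CG dinucleotides, whereas the Cntn1 window had 53.6% and 7, against a median of 52.4% G or C over all 32851 windows of this length. RefSeq windows were at hand for 8 members (13 windows), and Ncam1 and Kirrel3 had none. On both strands, the Sox words ACAAAG and ACAATG and a palindromic Ebf motif were looked for, and capitals would mark a match. The 3 windows printed held none of them. Elsewhere, the Chl1 window held ACAAAG (16.46% of all windows did) and the Ebf motif (0.779%), and 1 of 3 Cntn1 windows held ACAATG (10.7%). Unlike the printed windows, both of these lie inside the annotated gene itself, and that of Chl1 overlaps a Chl1 exon.

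Per kilobase of exon, the scale on which genes can be compared with each other, Ncam1 was the most abundant of the 10 in all 7 groups, from 23.0 ± 4.31 CPM per kb (SD, n = 7) in E13.5 olfactory nerve to 58.8 ± 2.82 CPM per kb (n = 4) in inner ONL. The gene that came next depended on the tissue. It was Cntn1 in outer ONL (23.0 ± 6.28 CPM per kb, n = 4) and inner ONL (22.6 ± 5.72, n = 4), Cntn2 in E13.5 ONL (18.8 ± 5.75, n = 5), Nrcam in E11.5 olfactory nerve (7.78 ± 2.19, n = 4), Cntn4 in olfactory nerve at E13.5 (6.01 ± 2.23, n = 7) and E16.5 (6.04 ± 1.90, n = 4), and L1cam in trigeminal nerve (7.22 ± 0.582, n = 3). At the other end were Cntn2 and Nfasc in trigeminal nerve (0.0234 ± 0.0141 and 0.0726 ± 0.0387 CPM per kb, n = 3) and Chl1 in E11.5 olfactory nerve (0.124 ± 0.0527, n = 4). With groups by label, Cntn2 (20.3 ± 5.42 CPM per kb, n = 4) came next in E11.5 olfactory nerve, Nrcam (6.50 ± 3.43, n = 5) in E13.5 ONL and Cntn4 (6.02 ± 2.21, n = 7) in E13.5 olfactory nerve, and Chl1 in E11.5 olfactory nerve was at 3.83 ± 1.48. Summed over the 10 genes, levels at E16.5 ran from 382 to 497 CPM in olfactory nerve and from 1061 to 1389 CPM in inner ONL.

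**Figure D1:**
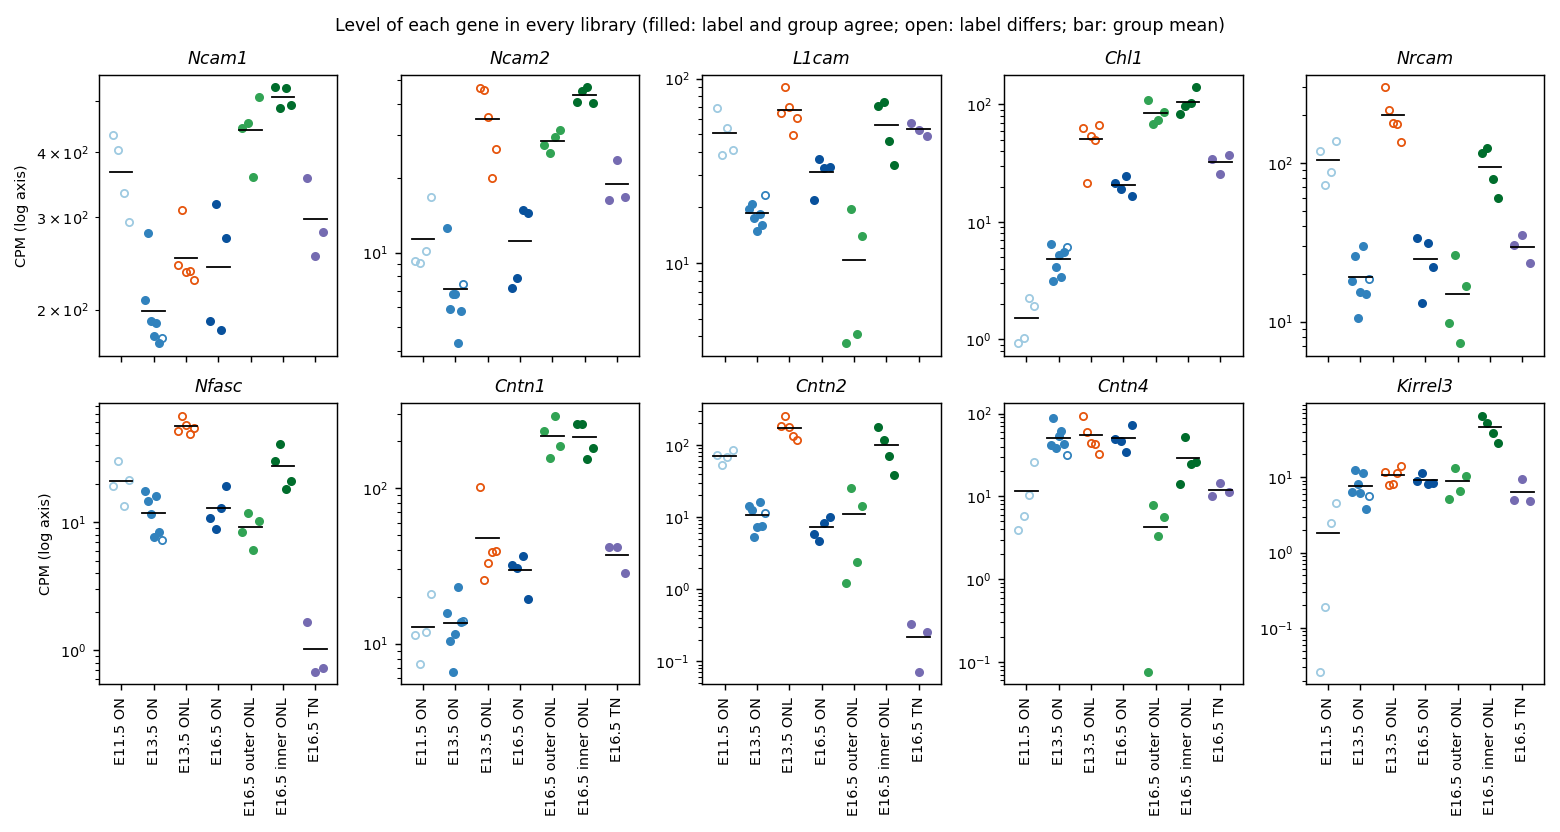
Level of each of the 10 genes in every library, in CPM on a log axis, with 1 point per library and a bar at the group mean; ON is olfactory nerve and TN trigeminal nerve, and open points are the 10 libraries whose label names another group. Cntn1 and Chl1 sit highest in both ONL layers at E16.5, Kirrel3 in inner ONL, and Nfasc and Cntn2 lie lowest in TN.

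The order of the groups differed from gene to gene. Cntn1 had 217 ± 59.2 CPM in outer and 213 ± 54.0 CPM in inner ONL (n = 4 each), with overlapping libraries, and every other group lay below both, the next being E13.5 ONL at 47.7 ± 30.8 CPM (n = 5). Kirrel3 was highest in inner ONL, at 46.1 ± 16.1 CPM (n = 4), above every library of the other 6 groups, and the next 5 groups, with means from 10.7 to 6.37 CPM, overlapped their neighbours. Nfasc was highest in E13.5 ONL, at 55.8 ± 7.41 CPM (n = 5), with no library of the next group, inner ONL at 27.4 ± 10.1 CPM, reaching it. Cntn2, L1cam and Nrcam were also highest in E13.5 ONL, at 175 ± 53.5, 67.1 ± 14.7 and 200 ± 62.0 CPM, but their next groups overlapped. Chl1 had the most graded order: inner ONL (106 ± 24.4 CPM) overlapped outer ONL (84.5 ± 17.9), which lay above E13.5 ONL (51.2 ± 18.1), and below trigeminal nerve (32.1 ± 5.96) came olfactory nerve at E16.5 (20.4 ± 3.52), at E13.5 (4.84 ± 1.30) and at E11.5 (1.53 ± 0.648), with no overlap between these last 4 groups. With groups by label, Nfasc (56.3 ± 8.48 CPM), Cntn2 (188 ± 50.4), L1cam (68.6 ± 16.51) and Nrcam (217 ± 57.8) had their highest means in E11.5 olfactory nerve (n = 4), and E13.5 ONL (n = 5) had 18.3 ± 8.58, 58.3 ± 28.6, 45.1 ± 17.2 and 86.8 ± 45.8 CPM of them. Chl1 by label was at 47.1 ± 18.1 CPM in E11.5 nerve, 13.6 ± 23.8 in E13.5 nerve and 2.432 ± 2.1 in E13.5 ONL.

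The first comparison asks how ONL differs from the olfactory nerve that feeds it at E16.5. Ncam1, Ncam2, Chl1 and Cntn1 were higher in outer ONL, and L1cam and Cntn4 were lower. Cntn1, a contactin that pairs with neuronal and glial partners, had 234, 157, 292 and 185 CPM in outer ONL replicates 1 to 4, against 32.1, 30.7, 36.6 and 19.3 CPM in olfactory nerve replicates 1 to 4. The lowest outer ONL library was above the highest nerve library, and the fold was 7.31 (log2 fold change 2.87, SE 0.37, adjusted p = 7.24e-07, edgeR's quasi-likelihood test). By in situ hybridization at E16.5, which it calls not quantitative, the paper saw Cntn1 in ensheathing cells of both ONL and mucosa and in trigeminal Schwann cells. It reported no clear difference between these glia, and high Cntn1 in olfactory epithelium. The fold is thus one of whole pieces, not of single glial cells. Chl1, the close homologue of L1, had 109, 68.3, 74.1 and 86.6 CPM in outer ONL, against 21.3, 19.0, 24.8 and 16.6 CPM in olfactory nerve. Its groups did not overlap either, and it was 4.14-fold higher (log2 2.05, SE 0.28, adjusted p = 2.36e-06).

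The Ncam pair changed less. Ncam2 had 27.2, 25.3, 29.5 and 31.4 CPM in outer ONL, against 7.18, 7.92, 14.9 and 14.4 CPM in olfactory nerve, a fold of 2.55 (log2 1.35, SE 0.29, adjusted p = 0.000754), with no overlap. Ncam1 had 357 to 508 CPM in outer ONL, against 183 to 318 CPM in olfactory nerve and was 1.83-fold higher (log2 0.87, SE 0.17, adjusted p = 0.000345). In the other direction, Cntn4 had 0.0767, 7.91, 3.34 and 5.62 CPM in outer ONL, where replicate 1 held a single count, against 49.8, 47.1, 34.8 and 73.4 CPM in olfactory nerve. It was 11.9-fold lower in outer ONL (log2 -3.58, SE 0.60, adjusted p = 4.02e-05), and every outer ONL library was below every nerve library. L1cam, the founding member of its family and a promoter of axon growth, had 3.68, 19.6, 4.13 and 14.0 CPM in outer ONL, against 22.1, 36.6, 32.7 and 33.2 CPM in olfactory nerve, 2.99-fold lower (log2 -1.58, SE 0.34, adjusted p = 0.000959). Within outer ONL, its replicates 2 and 4 were the high ones, as for Tubb3.

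Of the 10 genes, 4 were called higher in outer ONL, where 10.21% of all genes tested were, and 2 were called lower, where 11.8% were. The median log2 fold change of the 10 was 0.27 and that of all genes tested 0.01. Nrcam, Nfasc, Cntn2 and Kirrel3 did not pass the test and their groups overlapped, with log2 values of -0.73 (SE 0.35, adjusted p = 0.139), -0.49 (SE 0.32, adjusted p = 0.301), 0.60 (SE 0.54, adjusted p = 0.487) and -0.06 (SE 0.59, adjusted p = 0.966). Without outer ONL replicates 2 and 4, a choice made after seeing the data, the 6 calls held and 8 genes were called: Nrcam then was lower at -1.56 and Cntn2 turned to -2.002. Without replicate 2 alone, Nrcam was called at -1.14 and Cntn2 was at -0.25. Of 10 ensheathing and glial markers, 9 were called higher in outer ONL (summed 22060 to 38880 CPM against 1808 to 4194 CPM), of 9 markers of olfactory epithelium 7 were lower (39.8 to 55.7 against 187 to 503 CPM) and of 12 markers of mesenchyme, cartilage and bone 8 were lower (6024 to 11810 against 11230 to 17850 CPM). The glial list holds Npy, Prss56, Frzb and Vtn, which the paper gives as specific to ONL or higher there. Vtn was found in these same data, so counts of glial markers here and below are not independent of comparisons with ONL. Of 16 markers of olfactory neurons and axons, 8 were lower and 2 higher (231 to 1171 against 944 to 1694 CPM). The part of these cells in the differences of the 10 genes was not tested.

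**Figure D2:**
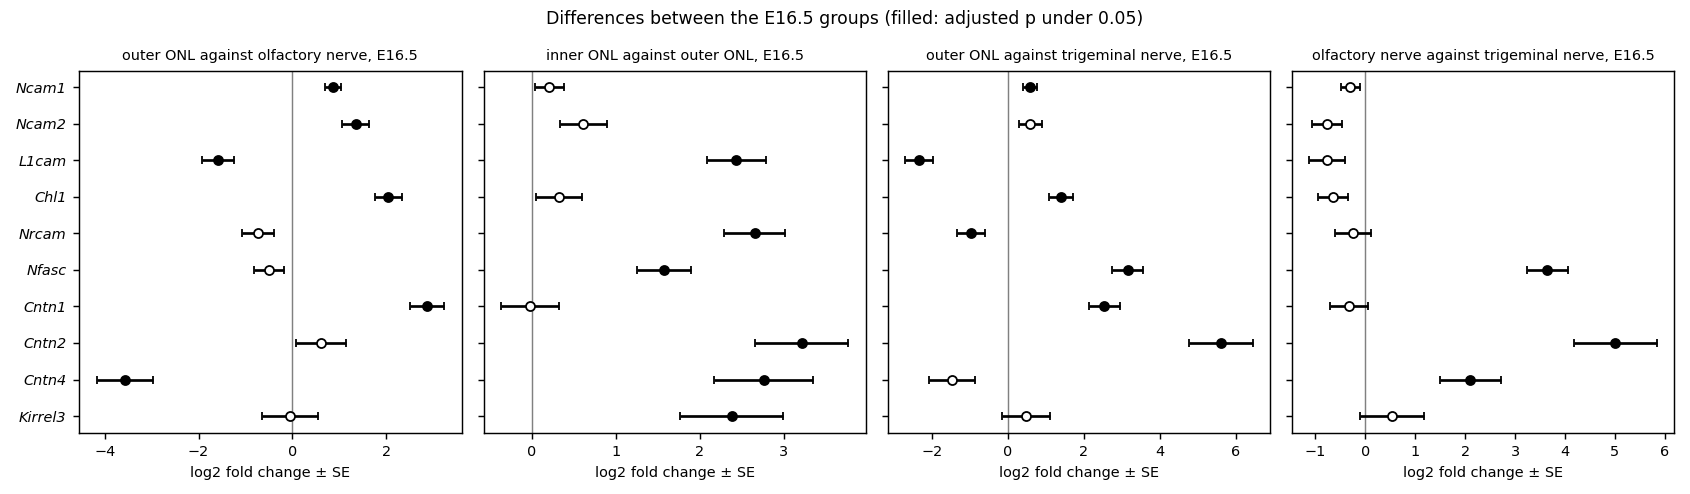
Log2 fold change of each gene with its standard error in the 4 comparisons within E16.5, filled where the adjusted p was under 0.05. Cntn1 lies at 2.87 in outer ONL against olfactory nerve and at -0.02 in inner against outer ONL, while Cntn2 lies at 0.60 and 3.21 in the same 2 panels.

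Inner ONL, the part next to the olfactory bulb, was compared with outer ONL. The paper cut these pieces by position and found that they did not separate inner from outer ensheathing cells. It also found bulb tissue in the inner pieces, so this comparison cannot tell whether the glia of the layer are uniform. L1cam, Nrcam, Nfasc, Cntn2, Cntn4 and Kirrel3 were all higher in inner ONL, with no overlap between the 4 libraries of each layer. Cntn2, the transient axonal contactin, had 179, 119, 71.3 and 38.6 CPM in inner ONL replicates 1 to 4 and 1.23, 25.7, 2.42 and 14.4 CPM in outer ONL, a fold of 9.25 (log2 3.21, SE 0.56, adjusted p = 0.00011). Nrcam, which binds ankyrin and contactins, had 116, 123, 79.5 and 59.9 CPM in inner and 9.82, 26.1, 7.33 and 16.8 CPM in outer ONL, 6.28-fold higher (log2 2.65, SE 0.36, adjusted p = 4.4e-06). Both were spread widely within outer ONL, and the same replicates 2 and 4 were the high ones in each. Kirrel3 had 65.0, 52.7, 38.6 and 28.2 CPM in inner and 5.06, 13.3, 6.62 and 10.4 CPM in outer ONL, 5.21-fold higher (log2 2.38, SE 0.61, adjusted p = 0.00661). Cntn4 had 13.9, 51.5, 24.8 and 26.0 CPM in inner ONL and was 6.76-fold higher (log2 2.76, SE 0.58, adjusted p = 0.00107). L1cam, with 33.9 to 74.3 CPM in inner ONL, was 5.40-fold higher (adjusted p = 1.06e-05), and Nfasc, with 18.1 to 40.6 CPM against 6.12 to 11.9 CPM, was 2.98-fold higher (adjusted p = 0.000747).

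The 4 genes called higher in outer ONL than in olfactory nerve were not called between the 2 layers. Cntn1 differed by -0.02 (SE 0.34, adjusted p = 0.991), Ncam1 by 0.21 (SE 0.17, adjusted p = 0.536), Chl1 by 0.33 (SE 0.27, adjusted p = 0.543) and Ncam2 by 0.61 (SE 0.28, adjusted p = 0.171), and of these only Ncam2 had groups without overlap. In all, 6 of the 10 genes were called higher in inner ONL and none lower, where 8.199% of all genes tested were higher and 5.938% lower, and the median log2 fold change was 1.98 against -0.05 over all genes tested. Without outer ONL replicates 2 and 4 the 6 calls held, and the log2 fold changes of Cntn2, L1cam and Nrcam were 5.83, 3.88 and 3.498. Of 14 olfactory bulb neuron and progenitor markers, 14 were higher in inner ONL (588 to 1142 CPM summed, against 21.3 to 217 CPM in outer ONL), and of 16 markers of olfactory neurons and axons 6 were higher and 2 lower (2074 to 4283 against 231 to 1171 CPM). The 10 glial markers gave 0 higher and 1 lower (24000 to 31380 against 22060 to 38880 CPM), and all 12 markers of mesenchyme, cartilage and bone were lower (1199 to 2367 against 6024 to 11810 CPM). Tbr1, a marker of bulb projection neurons, had 15.8 to 43.0 CPM in inner and 0.614 to 7.22 CPM in outer ONL. The part of bulb neurons in the higher levels of the 6 genes was not tested.

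**Figure D3:**
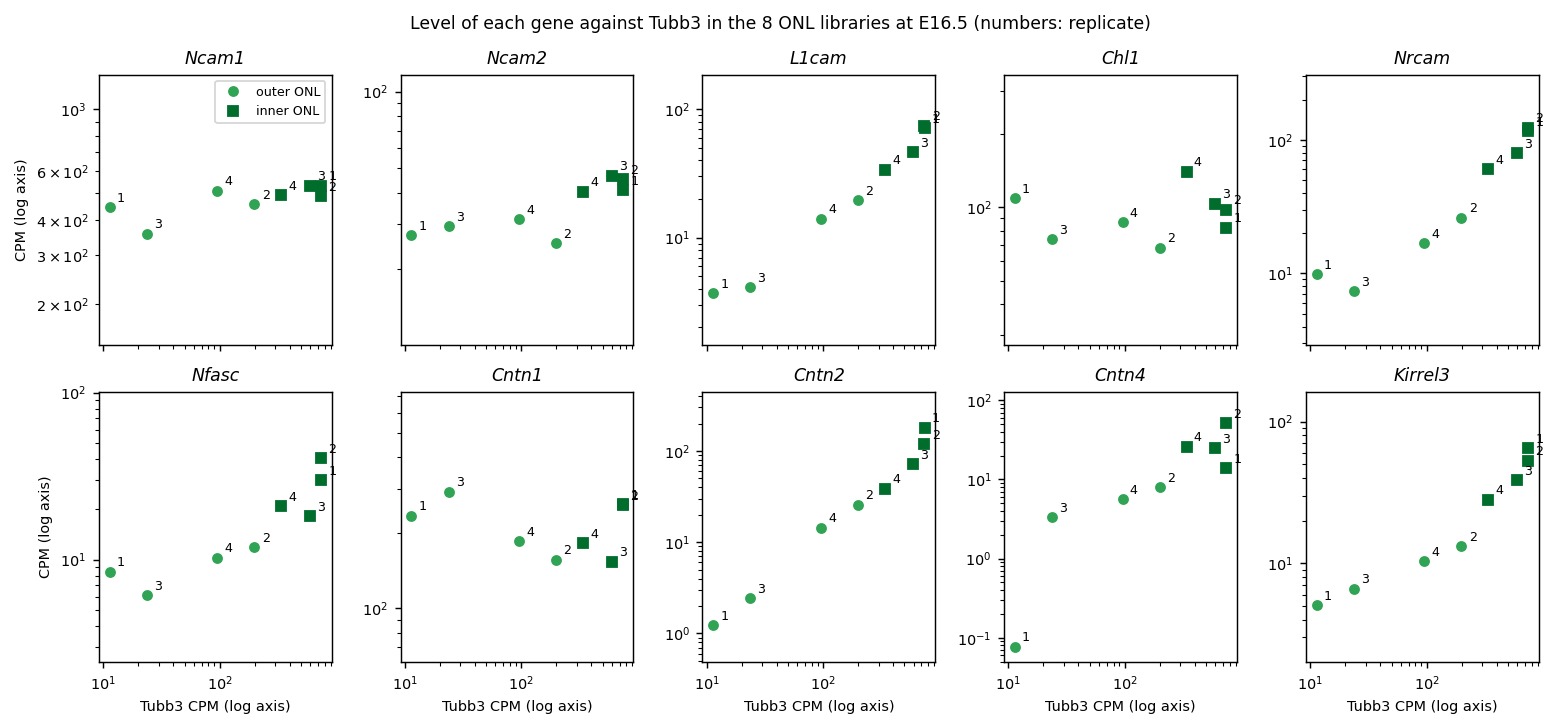
Level of each gene (CPM, log axis) against that of Tubb3 (CPM, log axis) in the 8 ONL libraries at E16.5, circles for outer and squares for inner ONL, with replicate numbers. L1cam, Nrcam, Nfasc, Cntn2, Cntn4 and Kirrel3 are higher in outer replicates 2 and 4, and higher again in inner ONL, while Cntn1 stays between 154 and 292 CPM in all 8.

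In trigeminal nerve, a nerve whose glia are Schwann cells, Nfasc and Cntn2 were nearly missing. Nfasc had 1.66, 0.686 and 0.735 CPM in replicates 1 to 3, against 6.12 to 11.9 CPM in outer ONL, against 8.85 to 19.1 CPM in olfactory nerve. It was 8.89-fold higher in outer ONL (log2 3.15, SE 0.40, adjusted p = 4e-07) and 12.5-fold higher in olfactory nerve (log2 3.65, SE 0.41, adjusted p = 6.26e-08). Cntn2 had 0.325, 0.0722 and 0.257 CPM in trigeminal nerve, which are 2 to 9 counts a library, so its folds rest on few counts. It was higher in outer ONL (log2 5.61, SE 0.84, adjusted p = 5.2e-06, 3.04 without outer ONL replicates 2 and 4) and in olfactory nerve (log2 5.01, SE 0.84, adjusted p = 3.45e-05). Tubb3 was also lower in trigeminal nerve than in any library of the other groups.

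L1cam took the other direction, with 57.5, 52.5 and 49.0 CPM in trigeminal nerve, above every library of outer ONL and of olfactory nerve. It was 5.09-fold lower in outer ONL than in trigeminal nerve (log2 -2.35, SE 0.36, adjusted p = 9.66e-06) and -0.77 in olfactory nerve, which did not pass (SE 0.35, adjusted p = 0.119). Cntn1 and Chl1, at 28.4 to 41.9 CPM and 25.4 to 36.8 CPM in trigeminal nerve, were higher in outer ONL by 2.54 (SE 0.41, adjusted p = 1.49e-05) and 1.40 (SE 0.31, adjusted p = 0.000777) on the log2 scale. For Cntn1, the paper's in situ hybridization showed no clear difference between ensheathing cells and Schwann cells. Ncam1 was also higher in outer ONL (0.57, SE 0.19, adjusted p = 0.0228) and Nrcam lower (-0.98, SE 0.37, adjusted p = 0.0478), though Nrcam groups overlapped. Against olfactory nerve, Cntn4 stood out, with 10.02 to 14.6 CPM in trigeminal nerve and 34.8 to 73.4 CPM in olfactory nerve (log2 2.102, SE 0.61, adjusted p = 0.0115).

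Thus 5 of 10 genes were called higher in outer ONL than in trigeminal nerve, where 13.54% of genes tested were, and 2 lower, where 12.27% were. In olfactory against trigeminal nerve, 3 were called higher and none lower, where 13% and 10.6% of genes were. Both comparisons share the 3 trigeminal libraries. Of 10 Schwann cell markers, 8 were lower in outer ONL than in trigeminal nerve (347 to 597 against 2820 to 4054 CPM summed). In the same comparison, 9 of 14 bulb markers were higher and 3 lower, and 10 of 16 olfactory neuron markers were higher and 1 lower. Of 10 glial markers 7 were higher and 0 lower, and of 12 mesenchyme markers 1 was higher and 6 lower. In olfactory against trigeminal nerve, 10 of 16 olfactory neuron markers were higher and 1 lower. The part of these cells was not tested. With groups by label in the early stages, the calls of Ncam1, Chl1 and Nrcam in outer ONL were lost, and leaving out 1 library ended that of Nrcam for each of the 7 except outer ONL replicate 2 (log2 -0.75 to -1.12) and that of Ncam1 for outer ONL replicate 4 or trigeminal replicate 2 or 3 (0.47 to 0.53). The Cntn4 call in olfactory nerve ended without trigeminal replicate 1 (2.02). Without outer ONL replicate 2, Cntn4 was called lower in outer ONL (-1.96), and without olfactory nerve replicate 3 Ncam2 was called lower in olfactory nerve (-0.92).

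Early in the formation of the layer, at E13.5, 7 of the 10 genes were called higher in ONL than in olfactory nerve, in each case with no overlap between 5 and 7 libraries. These groups held more pieces than embryos, so some pieces share an embryo and the p-values, taken over pieces, are too small. Cntn2 had 119, a median of 181 and 255 CPM in ONL (lowest, median and highest) and 5.36, 11.4 and 16.1 CPM in olfactory nerve, 16.45-fold higher (log2 4.04, SE 0.45, adjusted p = 2.62e-08). With groups by label its log2 value was 1.15 and did not pass. Nrcam had 135, 178 and 299 CPM in ONL and 10.6, 18.1 and 29.8 CPM in nerve (log2 3.40, SE 0.29, adjusted p = 1.59e-10, by label 1.27, not passed). Chl1 had 21.4, 53.8 and 67.4 CPM in ONL and 3.12, 5.19 and 6.43 CPM in nerve (log2 3.38, SE 0.24, adjusted p = 4.9e-12), and by label it was lower in ONL, at -2.61.

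The other 4 rose by less. Ncam2 had 20.04 to 46.5 CPM in ONL and 4.30 to 12.6 CPM in nerve (log2 2.28, SE 0.24, adjusted p = 7.91e-09, by label 0.09, not passed). Nfasc had 48.4 to 67.6 CPM in ONL and 7.21 to 17.7 CPM in nerve (log2 2.24, SE 0.26, adjusted p = 5.12e-08, by label -0.02, not passed). L1cam had 49.5 to 89.6 CPM in ONL and 15.01 to 23.4 CPM in nerve (log2 1.84, SE 0.28, adjusted p = 3.44e-06, by label 0.90, not passed), and Cntn1 had 25.6 to 102 CPM and 6.62 to 23.2 CPM (log2 1.77, SE 0.29, adjusted p = 1.76e-05, by label -0.41, not passed). All 5 ONL libraries were above all 7 nerve libraries for these genes too. Ncam1 (0.33, SE 0.14, adjusted p = 0.0727, by label 0.67), Cntn4 (0.09, SE 0.44, adjusted p = 0.908, by label -1.72) and Kirrel3 (0.48, SE 0.49, adjusted p = 0.521, by label -1.85) did not pass and overlapped, although by label these 3 passed. Ncam1 also passed without E13.5 olfactory nerve replicate 3 (0.43). Of all genes tested 15.41% were called higher and 16.07% lower, and the median log2 fold change was 2.04 for the 10 genes and -0.03 for all. Of 14 bulb neuron markers 10 were higher and 1 lower in ONL (982 to 1389 against 137 to 184 CPM summed), of 10 glial markers 9 were higher and 1 lower (4911 to 7569 against 570 to 1160 CPM), and of 16 olfactory neuron markers 7 were higher and 6 lower (3619 to 5836 against 1274 to 2183 CPM), and the part of each in these differences was not tested. With groups by label, 0 bulb markers were higher and 3 lower, 2 glial markers higher and 5 lower, and 3 olfactory neuron markers higher and 1 lower.

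**Figure D4:**
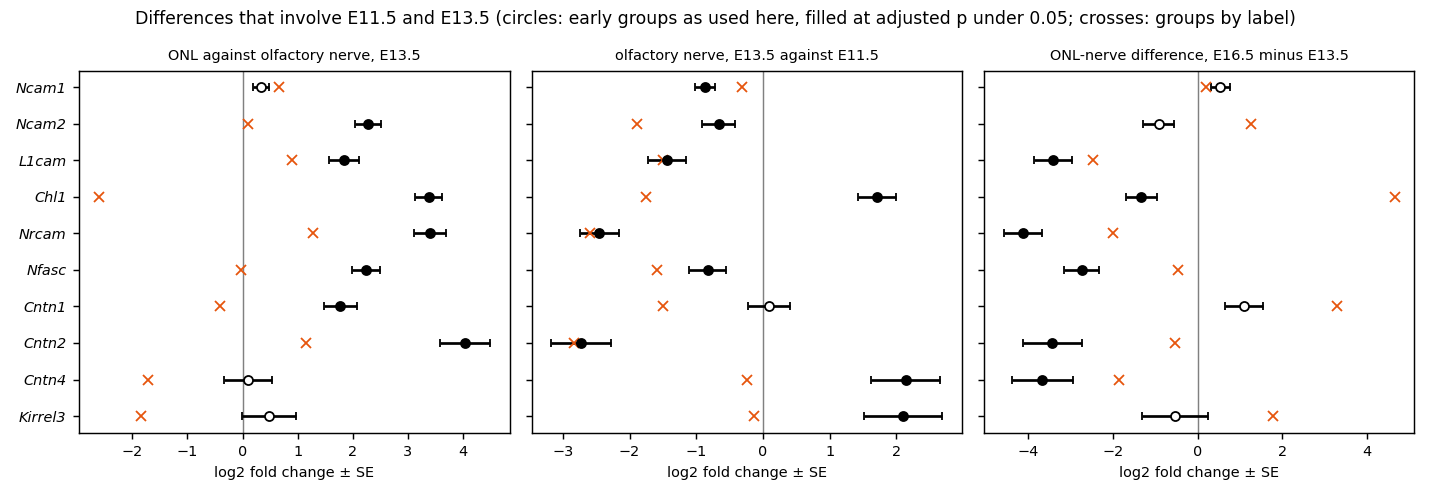
Log2 fold change of each gene with its standard error (circles, filled where the adjusted p was under 0.05) in 3 comparisons that involve the early stages, with crosses for groups taken from the labels. Chl1 lies at 3.38 as grouped here and at -2.61 by label in the E13.5 comparison, and at -1.33 and 4.66 in the difference between stages.

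Within olfactory nerve, 6 of the 10 genes fell from E11.5 to E13.5 and 3 rose, over 4 and 7 pieces that again outnumber their embryos, so that p-values are too small. Nrcam fell from 72.8 to 137 CPM at E11.5 to 10.6 to 29.8 CPM (log2 -2.46, SE 0.29, adjusted p = 1.53e-07, by label -2.59), and Cntn2 from 53.4 to 85.2 CPM to 5.36 to 16.1 CPM (log2 -2.72, SE 0.45, adjusted p = 2.22e-05, by label -2.84). L1cam (-1.43, SE 0.29, adjusted p = 0.00023, by label -1.50) and Ncam1 (-0.88, SE 0.15, adjusted p = 2.98e-05, by label -0.31, not passed) also fell. These 4 genes had no overlap between the ages. Nfasc (-0.83, SE 0.27, adjusted p = 0.0169, by label -1.59) and Ncam2 (-0.67, SE 0.25, adjusted p = 0.0368, by label -1.89) fell with overlapping libraries, and neither call was firm. Without the library labelled E13.5 ONL replicate 3 or E13.5 olfactory nerve replicate 5 that of Nfasc was lost (-0.61 and -0.70). That of Ncam2 was lost without the library labelled E13.5 ONL replicate 5 (-0.43) or without any of E13.5 olfactory nerve replicates 3 to 7 (-0.57 to -0.63).

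Rising were Chl1, from 0.927 to 2.24 CPM up to 3.12 to 6.43 CPM (log2 1.70, SE 0.29, adjusted p = 2.84e-05, by label -1.75), Cntn4, from 3.92 to 26.1 CPM up to 31.6 to 87.5 CPM (log2 2.14, SE 0.52, adjusted p = 0.00163, by label -0.24, not passed), and Kirrel3 (log2 2.103, SE 0.59, adjusted p = 0.00552, by label -0.13, not passed). Kirrel3 at E11.5 ranged from 0.0265 CPM, a single count, to 4.53 CPM, and its highest library overlapped the E13.5 range of 3.78 to 12.5 CPM. Without the library labelled E13.5 ONL replicate 5, the highest at E11.5 for both, Kirrel3 was at 3.18 and Cntn4 at 2.903, and with only these groups in the fit Kirrel3 was not called (adjusted p = 0.0631 by edgeR, over its alternatives 0.000323 to 0.919). Cntn1 did not pass (0.09, SE 0.32, adjusted p = 0.853, by label -1.49, passed). Among all genes tested 20.19% were called higher and 16.39% lower at E13.5, and the median of the 10 genes was -0.75 against 0.05 for all. Tubb3 fell over the same step, from 796 to 914 CPM to 207 to 557 CPM (by label from 857 to 1578 CPM to 307 to 892 CPM), and 9 of 12 mesenchyme markers were higher and 2 lower (by label 4 and 1). Their part was not tested.

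From E13.5 to E16.5, olfactory nerve changed in 2 of the 10 genes. Chl1 rose again, from 3.12 to 6.43 CPM to 16.6 to 24.8 CPM (log2 2.06, SE 0.25, adjusted p = 4.01e-07, by label 0.55, not passed), and Cntn1 rose from 6.62 to 23.2 CPM to 19.3 to 36.6 CPM (log2 1.12, SE 0.31, adjusted p = 0.00668, by label 0.77, not passed). Chl1 thus rose at both steps in olfactory nerve as grouped here, though by label the first step was a fall. Of all genes tested 15.16% were higher and 13.63% lower. The E13.5 pieces outnumber their embryos and p-values are too small. Ncam2 (0.64, SE 0.25, adjusted p = 0.0576, by label 0.16) and L1cam (0.74, SE 0.29, adjusted p = 0.0568, by label 0.36) lay just past the threshold, and DESeq2 called 4 of the 10 genes here. Leaving out 1 library, Ncam2 was called without E13.5 replicate 2 (0.84) or E16.5 replicate 1 (0.80) or 2 (0.77), L1cam without E16.5 replicate 1 (0.87) and Ncam1 without E13.5 or E16.5 replicate 3 (0.38 and 0.45). Over this step 8 of 10 glial markers were higher and 0 lower (by label 3 and 0), 8 of 12 mesenchyme markers were higher and 2 lower (by label 7 and 0), and 8 of 12 vascular and blood markers were higher and 0 lower (by label 7 and 0), and their part was not tested.

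In ONL, E16.5 outer ONL was set against E13.5 ONL, which was taken as 1 layer. Cntn1 rose from 25.6 to 102 CPM to 157 to 292 CPM (log2 2.21, SE 0.34, adjusted p = 3.74e-06, by label 4.05), and Ncam1 (0.81, SE 0.16, adjusted p = 0.000145, by label 0.43, not passed) and Chl1 (0.73, SE 0.26, adjusted p = 0.0238, by label 5.21) rose less. Chl1 lost its call without the library labelled E11.5 olfactory nerve replicate 2 (0.53) or outer ONL replicate 1 (0.58). Falling were Cntn2 (-3.99, SE 0.57, adjusted p = 1.41e-06, by label -2.41), Nrcam (-3.73, SE 0.37, adjusted p = 3.31e-09, by label -2.53), Cntn4 (-3.66, SE 0.59, adjusted p = 9.6e-06, by label -1.85), L1cam (-2.69, SE 0.35, adjusted p = 2.9e-07, by label -2.12) and Nfasc (-2.60, SE 0.32, adjusted p = 1.6e-07, by label -0.997, not passed). Without outer ONL replicates 2 and 4 the falls were larger, at -6.601 for Cntn2, -4.58 for Nrcam, -5.0 for Cntn4, -4.13 for L1cam and -2.97 for Nfasc, and without replicate 2 alone Cntn2 was at -4.84. All 8 had groups without overlap, and the pieces at E13.5 outnumber their embryos, so that p-values are too small. Ncam2 (-0.29, SE 0.27, adjusted p = 0.414, by label 1.42, passed) and Kirrel3 (-0.27, SE 0.57, adjusted p = 0.745, by label 1.84, passed) did not pass and overlapped. Of all genes tested 21.86% were called higher and 20.01% lower. Tubb3 went from 857 to 1578 CPM in E13.5 ONL (by label 207 to 914 CPM) to 11.4 to 199 CPM. Of 14 bulb markers 8 were lower and 0 higher (by label 2 and 3), of 16 olfactory neuron markers 8 were lower and 5 higher (by label 10 and 2), of 10 glial markers 9 were higher and 0 lower (by label also 9 and 0), and of 12 mesenchyme markers 7 were higher and 1 lower (by label 5 and 3). Their part was not tested. The comparisons over the early stages share libraries with one another.

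The difference between ONL and nerve, taken with outer ONL at E16.5 and with the undivided ONL at E13.5, changed between the stages for 6 of the 10 genes, in a test of the E16.5 difference less the E13.5 difference that also rests on E13.5 pieces sharing embryos and gives p-values that are too small. L1cam turned from 1.84 at E13.5 to -1.58 at E16.5 (change -3.42, SE 0.44, adjusted p = 6.25e-06, by label -2.48), and Nrcam from 3.40 to -0.73 (change -4.13, SE 0.46, adjusted p = 5.24e-07, by label -2.01, not passed). Cntn4 went from 0.09 to -3.58 (change -3.67, SE 0.72, adjusted p = 0.000716, by label -1.86, not passed), Cntn2 from 4.04 to 0.60 (change -3.44, SE 0.70, adjusted p = 0.00104, by label -0.55, not passed), and Nfasc from 2.24 to -0.49 (change -2.73, SE 0.41, adjusted p = 4.75e-05, by label -0.47, not passed). Chl1 was higher in E13.5 ONL and in outer ONL at E16.5, but by less in the latter (change -1.33, SE 0.36, adjusted p = 0.0124, by label 4.66). All 6 moved down, where 6.745% of all genes tested were called lower and 5.592% higher. Cntn1 (change 1.10, SE 0.46, adjusted p = 0.126, by label 3.28, passed), Ncam1 (0.54, SE 0.22, adjusted p = 0.122, by label 0.20), Ncam2 (-0.92, SE 0.37, adjusted p = 0.107, by label 1.26) and Kirrel3 (-0.53, SE 0.77, adjusted p = 0.758, by label 1.79) did not pass. Leaving out 1 library, Cntn1 was called without the library labelled E11.5 olfactory nerve replicate 1 (1.55), Ncam1 without E16.5 olfactory nerve replicate 2 (0.70) and Ncam2 without the library labelled E11.5 olfactory nerve replicate 4 (-1.07) or E13.5 olfactory nerve replicate 2 (-1.13). The 6 calls held without outer ONL replicates 2 and 4, and without replicate 2 alone Cntn2 was at -4.29. Inner ONL, which did not enter this test, had means above those of E16.5 olfactory nerve for L1cam (56.3 against 31.1 CPM), Nrcam (94.6 against 25.0 CPM), Cntn2 (102 against 7.23 CPM) and Nfasc (27.4 against 12.9 CPM), with no test of these differences. In the tested change 6 of 14 bulb markers were lower and 0 higher (by label 1 and 2) and 9 of 16 olfactory neuron markers were lower and 3 higher (by label 5 and 0), and their part was not tested.

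Levels were also set against single genes for glia and neurons in the E16.5 libraries of olfactory nerve and outer ONL, as log2 ratios with 0.5 CPM added to each level. Tubb3 itself lay at 11.4 to 199 CPM in outer ONL and 150 to 283 CPM in nerve. A gene of equal level in both therefore tends to have the higher ratio to Tubb3 in outer ONL. Relative to Tubb3, Cntn1 lay between -0.35 and 4.31 in outer ONL and between -3.84 and -2.20 in olfactory nerve. Chl1, Ncam1, Ncam2 and Cntn2 were likewise higher in outer ONL without overlap, although Cntn2 was not called on its own level (log2 0.60). Within outer ONL, Cntn2 had ratios to Tubb3 from -3.05 to -2.70 although its level ran from 1.23 to 25.7 CPM. Cntn4 was lower relative to Tubb3 (-4.57 to -2.65 against -2.27 to -1.66), so that 6 of 10 genes did not overlap, where 16.16% of all genes tested did not. L1cam, at -3.31 to -1.50 against -3.09 to -2.02, overlapped. Relative to Sox10, 6 of 10 also did not overlap, all lower in outer ONL, but 95.89% of all genes tested did not, since Sox10 itself lay at 572 to 712 CPM in outer ONL and 97.5 to 180 CPM in nerve. Cntn1 and Chl1 overlapped on that scale, at -2.10 to -0.97 against -2.53 to -1.59 and at -3.29 to -2.51 against -3.21 to -2.17.

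Among 32 other immunoglobulin-family adhesion genes, 8 were called higher and 6 lower in outer ONL than in olfactory nerve (median log2 fold change -0.23), and the 22 partners and modifiers of the family gave 5 and 4 (median 0.05). Cntn3, a further contactin, rose most of the former, with 95.2 ± 14.2 CPM in outer ONL and 5.12 ± 5.13 CPM in nerve (n = 4 each, log2 4.21, adjusted p = 2.5e-07), and Cadm2 followed (3.62). Igsf9 fell by 3.38 on the log2 scale, and Kirrel2, a relative of Kirrel3, had at most 0.0611 CPM in outer ONL and 0.780 to 7.70 CPM in nerve. Of the partners, Ptprz1, a receptor phosphatase that binds contactins, rose by 2.84 (SE 0.22, adjusted p = 1.42e-10) and Cntnap5a by 3.10, while Tnc (-1.81) and Sptbn4 (-2.12) fell. Between inner and outer ONL, 9 other family genes were higher and 3 lower, and 7 partners higher and 0 lower, with medians of 0.36 and 0.79. Cntn5 (3.24) and Thy1 (2.86) rose most, Bcam (-0.998) and Mag (-1.90) fell most, and of the partners Cntnap3 had 5.39 ± 4.81 CPM in inner and 0.126 ± 0.251 CPM in outer ONL and Tnr 13.04 ± 5.71 and 1.35 ± 1.87 CPM (n = 4 each).

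Against trigeminal nerve, other family genes gave 7 higher and 12 lower in outer ONL and 4 higher and 13 lower in olfactory nerve. Mag, an adhesion gene of myelinating glia, had 155 ± 13.4 CPM in trigeminal nerve (n = 3) and was lower in outer ONL (7.15 ± 0.987 CPM) and in olfactory nerve (5.85 ± 1.93 CPM, n = 4 each). Dscaml1 and Dscam had 0.098 ± 0.170 and 0.109 ± 0.062 CPM in trigeminal nerve and were higher in outer ONL (5.04 ± 3.44 and 2.71 ± 2.63 CPM) and in olfactory nerve (8.47 ± 4.61 and 3.26 ± 1.66 CPM). Among partners, 10 were higher and 6 lower in outer ONL, with Ncan up (5.76) and Tnc (-3.57) and Gldn (-3.27) down, and 8 higher and 5 lower in olfactory nerve, with Bcan up (5.39) and Tnc (-1.75) and Epb41l3 (-1.56) down. Cadm4 was lower in olfactory nerve (-3.45), Kirrel2 had 0.0153 ± 0.0305 CPM in outer ONL, with 1.27 ± 0.794 CPM in trigeminal nerve, and Tnr, with no count in the trigeminal libraries, had 1.35 ± 1.87 CPM in outer ONL. At E13.5, 14 of the 32 were higher and 8 lower in ONL, and 13 of the 22 partners were higher and 0 lower, over pieces that share embryos (by label 4 and 10 of the 32, and 1 and 3 of the 22). Cntn3 rose by 5.72 (by label -5.44) and Cntn5 by 4.77 (by label -1.72), Sdk1 (-1.82, by label -0.04) and Kirrel2 (-3.51, by label -4.06) fell, and Cntnap2, the partner of Cntn2, rose from 4.87 ± 1.37 CPM (n = 7) to 247 ± 51.5 CPM (n = 5, log2 5.69, by label -0.81) beside Ncan (4.99, by label -0.18).

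Across the 31 libraries, which share groups and depth, the levels of Nfasc and Cntn2 went together most of all 45 pairs of the 10 genes (Pearson r of log2 levels 0.921), and these 2 genes are neighbours on chromosome 1. Chl1 and Cntn1 came next (0.877), on chromosomes 6 and 15, and Chl1 and Cntn4, both on chromosome 6, did not go together (-0.146). Ncam1 and Cntn4 had the lowest value (-0.557). Over 13661 genes, those most like each member were Actl6b (0.978) and Rufy3 (0.969) for Cntn2, Scg5 (0.950) and Rtn1 (0.947) for Nfasc, Ttyh1 (0.961) and Pde4b (0.957) for Chl1, Hsdl2 (0.958) and Selenop (0.957) for Cntn1, Tspan13 (0.925) and Scg3 (0.917) for Nrcam, Tecr (0.901) and Cisd3 (0.895) for Ncam1, Clcn3 (0.900) and Samd8 (0.879) for Ncam2, Camk4 (0.890) and Rapgef4 (0.867) for Kirrel3, Rusc1 (0.874) and Negr1 (0.871) for L1cam, and Ptprd (0.837) and Pygo1 (0.835) for Cntn4.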

How the data were processed

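Laser-microdissected olfactory and trigeminal nerve pieces of mouse embryos were profiled by RNA-seq from SMART-seq V4 cDNA and Nextera XT libraries, which do not mark strand. The authors deposited counts per gene, made with TopHat2 2.1.0 on mm10 and HTSeq after FastQC, per the labels and the study's methods, and the strand setting of the counting is not given in the sources used here. The 1 row with no gene name was left out, and 47224 of 47729 genes had a symbol. With 3512627 to 36705535 counts a library, a gene at a few counts is imprecise, and the number of pieces limits the precision of the rest.

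Counts were scaled by TMM, filtered by group (19332 of 33331 genes with a count were tested) and fitted over all 31 libraries and 7 groups with edgeR 4.0.16 (R 4.3.3), whose quasi-likelihood test with Benjamini-Hochberg adjustment over all genes tested gave every adjusted p. Genes with an adjusted p below 0.05 were called. Tables were made with Python 3.11.15. The members and lists were chosen with earlier results of these data known. All 10 members were named, with the 2 genes most like each by correlation, up to 2 risen and 2 fallen called genes of 2 related lists in 5 comparisons, and Sox10, Tubb3 and cell type markers. Same-numbered outer ONL and olfactory nerve libraries at E16.5 correlated in their deviations at 0.230 to 0.482 over 12234 genes. Other numbers gave -0.376 to 0.364, and these ranges overlap, so whether replicate numbers mark the embryo there was uncertain. The main fit took no pairing, and a fit with the replicate number as a block was an alternative. Other alternatives were DESeq2 1.42.0, its size factors, other filters, fits on fewer groups, groups by label and each library left out. The fits were tested on simulated data.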

Additional observations from a re-analysis of the deposited data

Results flagged for a closer look

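In 5 of 60 combinations of gene and group, 1 library lay far from the others by Dixon's test, which flags about 1 in 20 groups by chance. Ncam1 had 279.5 CPM in the E13.5 olfactory nerve library labelled replicate 3, against 172.7 to 208.7 CPM in the others. In E13.5 ONL, Ncam1 had 309.3 CPM in the library labelled E11.5 olfactory nerve replicate 2 (others 228.3 to 243.5 CPM) and Cntn1 had 101.8 CPM in that labelled replicate 1 (others 25.63 to 39.45 CPM). Ncam2 had 16.84 CPM in the E11.5 olfactory nerve library labelled E13.5 ONL replicate 5 (others 9.074 to 10.12 CPM) and 12.56 CPM in E13.5 olfactory nerve replicate 2 (others 4.295 to 7.461 CPM).

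The difference between ONL and olfactory nerve, with the undivided ONL at E13.5 and outer ONL alone at E16.5, changed by a test of the change itself for L1cam (-3.423 on the log2 scale), Chl1 (-1.331), Nrcam (-4.129), Nfasc (-2.734), Cntn2 (-3.435) and Cntn4 (-3.671). With groups by label the change of Chl1 had the opposite sign, and 3 of the 10 genes were called.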

How the results depend on the processing

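Of 1690 values for the 10 genes in 9 comparisons under alternatives, 1572 kept their direction and side of the threshold, 47 lost the call, 33 gained it and 38 changed sign. Groups by label changed most: 4 of the 10 genes were called in outer ONL against trigeminal nerve, 4 in E13.5 ONL against olfactory nerve, 3 in the change between stages and 0 in olfactory nerve from E13.5 to E16.5, where edgeR gave 2 at an unadjusted p under 0.05 and DESeq2 or its size factors called 4 with the groups used here. Signs by label turned in E13.5 ONL against nerve for Chl1 (-2.61), Nfasc (-0.024), Cntn1 (-0.41), Cntn4 (-1.72) and Kirrel3 (-1.85), in nerve from E11.5 to E13.5 for Chl1 (-1.75), Cntn1 (-1.49), Cntn4 (-0.24) and Kirrel3 (-0.13), in nerve from E13.5 to E16.5 for Nrcam (-0.53) and Nfasc (-0.53), in outer against E13.5 ONL for Ncam2 (1.42) and Kirrel3 (1.84), and in the change between stages for Chl1 (4.66), Ncam2 (1.26) and Kirrel3 (1.79). Olfactory against trigeminal nerve gave 5 calls when fitted on E16.5 libraries alone and 5 on those groups alone. In outer ONL against olfactory nerve, Cntn2 turned to -2.002 without outer ONL replicates 2 and 4, a choice made after seeing the data, as did Kirrel3 in outer ONL against trigeminal nerve (-0.12). Values near 0 also turned for Nrcam in olfactory against trigeminal nerve with total counts alone (0.0074), Cntn1 in inner against outer ONL with E16.5 libraries alone (0.022) and Cntn4 in nerve from E13.5 to E16.5 with only libraries whose label matched the placement (-0.043). Leaving out each library in turn, Cntn2 ran from -0.25 to 0.94 and Kirrel3 from -0.32 to 0.12 in outer ONL against olfactory nerve, Cntn1 from -0.15 to 0.15 in inner against outer ONL, Cntn4 from -0.18 to 0.27 in E13.5 ONL against nerve, Cntn1 from -0.10 to 0.40 in nerve from E11.5 to E13.5, and Nfasc from -0.053 to 0.27 and Cntn4 from -0.15 to 0.22 in nerve from E13.5 to E16.5. The number of called genes then ran from 2 to 4 in olfactory nerve from E13.5 to E16.5, from 2 to 4 in olfactory against trigeminal nerve and from 5 to 8 in outer ONL against trigeminal nerve. The cause of these changes was not tested.

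With the replicate block, Cntn2 in outer ONL against olfactory nerve turned to -0.20, and 6 genes were called, as without it. In the other E16.5 comparisons same-numbered libraries correlated at -0.296 to 0.286, so the numbers did not show which libraries share an embryo. There the block gave 7 calls in inner against outer ONL, with Ncam2 added, 4 in olfactory against trigeminal nerve, with L1cam added, and 6 in outer ONL against trigeminal nerve, with Ncam1 lost. For the early stages no paired analysis was possible, because label numbers and groups do not go together there. Low counts limit Cntn2 and Nfasc in trigeminal nerve and Cntn4 in outer ONL replicate 1.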
